A study of Mus musculus with 2 samples.

Results

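The genes described here belong to the Bcl2 family, which sets whether a cell lives or dies through its mitochondria. The 10 listed genes were Bcl2, Bcl2l1, Mcl1, Bax, Bak1, Bbc3, Pmaip1, Bcl2l11, Bid and Bad, and a gene was followed through every probeset that the array's annotation table assigns to its symbol alone. This gave 87 probesets for 9 of the 10 genes, out of 21947 genes named in the whole table. The table assigns no probeset to Bax, so the expression of Bax was not analysed here.

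The family works by binding among its own proteins. Survival proteins such as BCL2, BCL-XL and MCL1 hold the pore formers BAX and BAK in check on the outer mitochondrial membrane. The BH3-only proteins, among them BIM, PUMA, NOXA, BID and BAD, carry stress signals: they occupy the survival proteins or activate the pore formers directly, after which cytochrome c leaves the mitochondria and caspases are switched on. In blood formation MCL1 is needed by stem cells and BCL-XL by maturing red cells, and much of the control of the family acts on proteins, which an RNA measurement does not read.

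RNA was measured on 2 Affymetrix arrays, 1 per condition. One array held cells kept in an LSD1 inhibitor, compound B, at 300 nM, and the other held cells kept in the solvent DMSO alone. Both cultures began with FLK1+ mesoderm isolated from day 3 embryoid bodies of a single mouse embryonic stem cell line, Bry-GFP, and the CD41 compartment of each was sorted on day 2 of culture. The labels call these cells hemogenic endothelium, the vessel lining from which blood emerges, and the number of cultures behind each array is not given in the sources used here. LSD1 is a histone demethylase that repressors of the Gfi1 family recruit, and the comparison asks which transcripts differ when it is blocked. With 1 array per condition there was no test between conditions, and every difference below describes these 2 arrays.

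Values are log2 intensities, and a difference is the value in the inhibitor array minus that in the DMSO array. A probeset was called bright if its higher value reached 3.17, the median of all values, and 4 such probesets were the fewest that a measured gene could have. Its level is the median over the bright probesets of an array, and its difference is the median of their differences. These medians can come from different probesets, so level and difference may disagree in size or even in sign. The SD given with a gene is the spread over its probesets and no error between samples. Passing the size rule took 2-fold or more, a difference of 1 either way, in which 75% or more of the bright probesets shared the direction.

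None of the 9 measured Bcl2 family genes passed the size rule in either direction. Of all 15087 measured genes, 1.72% passed it as higher in the inhibitor array and 0.563% as lower. Of the 9 genes, 7 (77.8%) had a difference above 0, as did 59.0% of all measured genes. The median difference was 0.33 for the 9 genes and 0.06 for all measured genes, and that of the members was 0.20 when each gene was read on its brighter probesets, which measured 6 of them, where that of all genes was 0.05. The 9 differences ran from -0.26 for Bid to 0.92 for Bcl2l11. At a lower bar of 1.5-fold, Bcl2l11 and Pmaip1 were higher and no member was lower. By that rule 5.85% of all measured genes were higher and 2.66% lower. Pmaip1 had the 4 bright probesets needed only through a probeset that was bright in the inhibitor array alone. With its dim probesets kept, Pmaip1 differed by 0.49, which is less than 1.5-fold. In bulk samples like these, fewer cells of a type and less RNA per cell cannot be told apart.

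**Figure D1:**
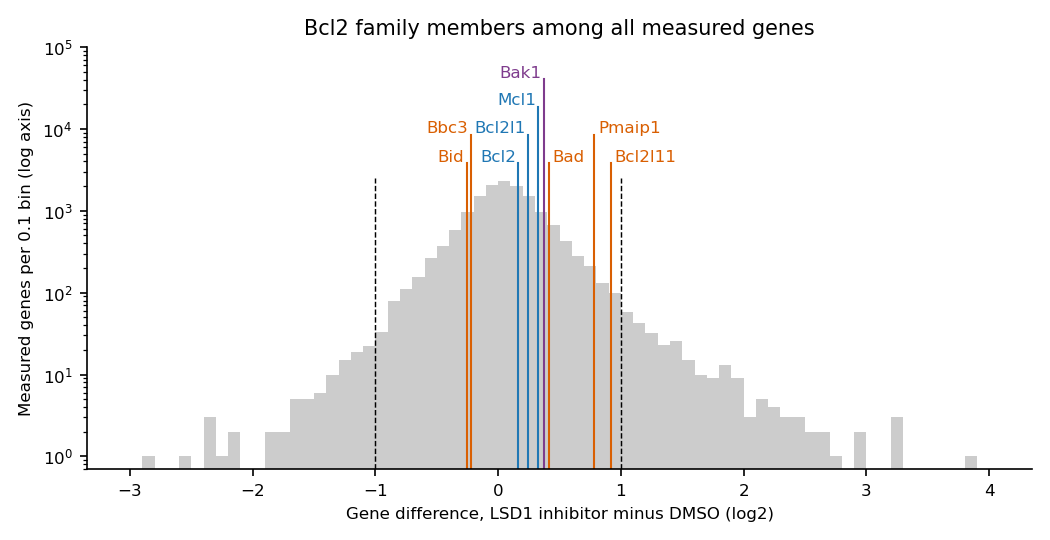
Histogram of the difference between the LSD1 inhibitor array and the DMSO array (log2) for all 15087 measured genes, on a log count axis, with a coloured line at each of the 9 measured members (orange for BH3-only genes, blue for survival genes, purple for the pore former) and dashed lines at 2-fold. All 9 lines lie between the dashed lines, with Bcl2l11 at 0.92 and Pmaip1 at 0.78 nearest to the upper one.

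Marker transcripts of several cell types differed between the arrays, beside these values. Whether the make-up of the sorted cells differed was not tested. Of 14 measured endothelial markers, 8 were higher past the size rule and none was lower, with a summed level of 11.76 in the inhibitor array and 10.23 in the DMSO array (log2 of the sum over genes). Of 14 measured erythroid markers, 10 were lower past that rule and none was higher. They had a summed level of 11.94 in the inhibitor array and 13.52 in the DMSO array. The globin genes, the brightest of the erythroid markers in both arrays, made up most of that sum. Single marker levels ran from 4.23 to 9.84 in the inhibitor array and from 3.62 to 7.97 in the DMSO array for endothelium, and from 3.86 to 10.49 in the inhibitor array and from 4.80 to 12.46 in the DMSO array for red cells. None of these 28 markers was below the table's median in either array, and the table has no detection call. The brightness filter uses that same median, so few measured genes lay below it. Of all 15087 measured genes, 113 did so in the inhibitor array and 144 in the DMSO array. Cdh5, the VE-cadherin gene that defines endothelium, was at 9.84 in the inhibitor array and 7.89 in the DMSO array, and Itga2b, which encodes the sort marker CD41, was at 5.996 in the inhibitor array and 6.19 in the DMSO array. Of 9 measured platelet markers, 8 were below 0 and 3 of these were lower past the size rule. Of 10 myeloid markers, 8 were above 0 and 2 were higher past the rule, and of 5 lymphoid markers 4 were above 0 and none passed it. Among all measured genes 59.0% were above 0. Lymphoid levels were low, from 3.73 to 4.57 in the inhibitor array and from 3.16 to 4.61 in the DMSO array. Their median difference of 0.46 became 0.007 with dim probesets kept. The part of these cell types in the differences of the Bcl2 family was not tested.

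The survival genes differed little. Mcl1, whose short-lived protein guards blood stem and progenitor cells, had a level of 7.85 in the inhibitor array and 7.61 in the DMSO array. Its difference was 0.33 (SD 0.50), with 7 of 8 probesets higher. The probeset furthest up differed by 1.49, from a low value of 4.06 in the DMSO array, and the 4 brightest probesets differed by between -0.25 and 0.37.

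Bcl2l1 encodes BCL-XL, the survival protein of maturing red cells. Its level was 6.79 in the inhibitor array and 6.94 in the DMSO array, yet the median of its probeset differences was 0.25 (SD 0.38), so the gap between the levels and the difference had opposite signs. Of its 13 bright probesets, 10 were higher and 3 lower, and the differences ran from -0.57 to 0.79.

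Bcl2, the founding survival gene of the family, had a level of 4.55 in the inhibitor array and 4.02 in the DMSO array. Its difference was 0.16 (SD 0.90), with 7 probesets higher and 4 lower. Of its 11 bright probesets, 2 were higher by more than 1, and 1 of these 2 was at 4.53 in the inhibitor array and at 2.30, below the table's median, in the DMSO array. The other 9 differed by between -0.75 and 0.65, so most of the spread of Bcl2 came from a pair of probesets.

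Bak1, the one pore former that could be read, was the steadiest member. Its level was 8.54 in the inhibitor array and 8.05 in the DMSO array, with a difference of 0.37, or 1.29-fold. All 9 of its probesets were bright in both arrays, 8 of the 9 were higher, and the SD over probesets of 0.32 was the smallest among the members. The single lower probeset differed by -0.11.

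**Figure D2:**
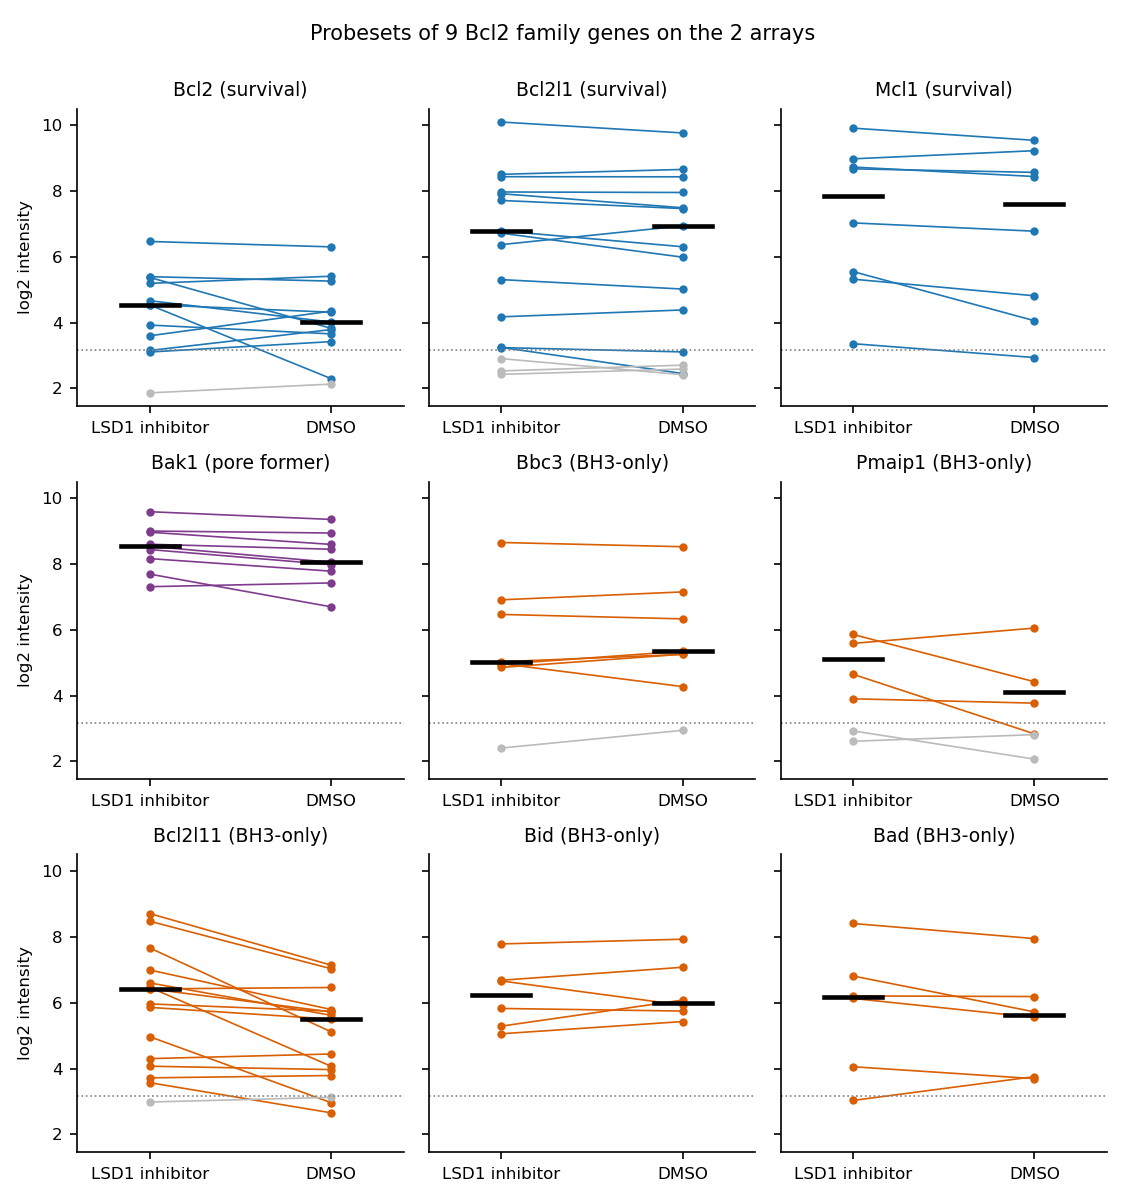
Log2 intensity of every probeset of the 9 genes in the LSD1 inhibitor array (left in each panel) and the DMSO array (right), with a line joining the 2 values of a probeset, grey for dim probesets, a black bar at the gene's level and a dotted line at the table's median of 3.17. Lines of Bak1 run nearly parallel, whereas those of Bcl2l11 and Pmaip1 include both steep and flat ones.

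The BH3-only genes held both ends of the family. Bcl2l11, which encodes BIM, a BH3-only protein able to bind all the main survival proteins, had the largest difference of the members. Its level was 6.42 in the inhibitor array and 5.50 in the DMSO array, and its difference was 0.92 (1.89-fold, SD 0.90), with 12 of 15 bright probesets higher. Of all measured genes, 2.32% had a difference at least as high. The gene missed the size rule by its size and not by the direction of its probesets, 80.0% of which were higher.

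The probesets of Bcl2l11 did not move together. In 6 of the 15 the inhibitor value was higher by between 1.20 and 2.55. Another 3 were higher by between 0.70 and 0.98, and the remaining 6 differed by between -0.14 and 0.36. The probeset furthest up had 7.67 in the inhibitor array and 5.12 in the DMSO array, and the brightest had 8.71 in the inhibitor array and 7.14 in the DMSO array. The 6 probesets with the largest differences ran from 4.97 to 8.71 in the inhibitor array and from 2.96 to 7.14 in the DMSO array. The 6 with the smallest ran from 3.72 to 6.42 in the inhibitor array and from 3.79 to 6.46 in the DMSO array. Whether brightness had a part in the split was not tested. BIM is made as several splice forms, but the exon behind each probeset was not used here, so probesets of different exons or introns cannot be told apart. The value for the gene therefore depended on which probesets were taken: the odd-ranked probesets, in the order of their identifiers, gave 1.21 and the even-ranked ones gave 0.22.

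**Figure D3:**
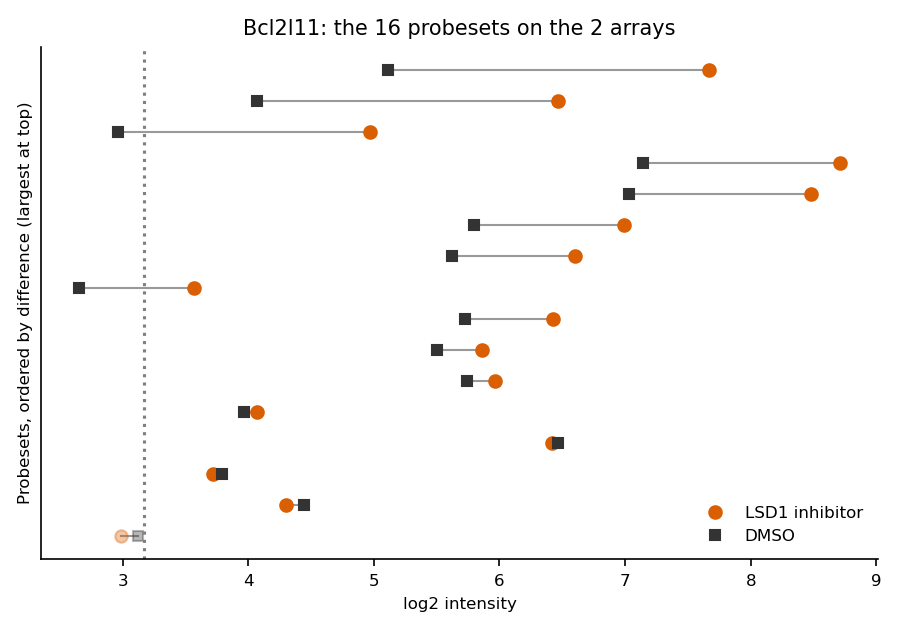
Log2 intensity of the 16 probesets of Bcl2l11 in the LSD1 inhibitor array (orange circles) and the DMSO array (dark squares), 1 row per probeset ordered by difference, with the single dim probeset pale and the table's median dotted. The 6 upper rows are separated by 1.20 or more, the next 3 by 0.70 to 0.98, and the other bright ones by 0.36 or less.

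The promoter of Bcl2l11 is shown because the gene lies nearest to the 2-fold line and is a known target of FOXO transcription factors, which switch on death genes when growth factor signalling is low. The 250 bases before its upstream annotated start (RefSeq, GRCm38.p6, chr2:128125788-128126037, plus strand) are given 5′ to 3′ in lower case, with a FOXO motif, GTAAACA, in capitals.
Bcl2l11: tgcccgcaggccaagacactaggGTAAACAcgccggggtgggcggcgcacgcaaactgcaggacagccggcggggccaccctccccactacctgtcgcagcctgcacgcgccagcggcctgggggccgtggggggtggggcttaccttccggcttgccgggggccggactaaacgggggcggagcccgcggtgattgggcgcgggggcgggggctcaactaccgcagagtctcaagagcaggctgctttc
Such windows numbered 15 for 9 member genes, with Bax included and Pmaip1 not. Only the window shown and a window of Bbc3 held the motif on either strand, as did 3.17% of 32851 RefSeq windows of that length. The match in Bbc3 is on the other strand (TGTTTAC) and is given with its surroundings (chr7:16310082-16310111, plus strand), beside the same length from Bcl2l11 (chr2:128125799-128125828, plus strand).
Bcl2l11 match: caagacactaggGTAAACAcgccggggtgg
Bbc3 match: gtctggcgggttTGTTTACaaacaatgggg
The 2 genes that share these letters had differences of opposite sign, 0.92 for Bcl2l11 and -0.22 for Bbc3. The GATA motif AGATAA and AAATCA, which holds the core of the Gfi1 motif, were each present on either strand in 1 of the 15 windows, both times in Bcl2l1, and in 9.99% and 12.4% of all windows. A match of letters is a description and not a binding site.

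Pmaip1 encodes NOXA, a BH3-only protein that binds MCL1 with preference. Its level was 5.12 in the inhibitor array and 4.10 in the DMSO array, and its difference was 0.78 (1.72-fold, SD 1.07), with 3 of 4 bright probesets higher. A pair of these probesets carried the gene: one had 4.65 in the inhibitor array and 2.84, below the table's median, in the DMSO array. The other had 5.86 in the inhibitor array and 4.42 in the DMSO array. Only 3 of the 4 were bright in both arrays. Pmaip1 therefore reached the 4 probesets needed to be measured through one that was bright in the inhibitor array alone. The remaining bright ones differed by 0.13 and -0.47. Pmaip1 thus rests on the fewest probesets of any member, and over all 6 of its probesets, dim ones included, the median difference was 0.49.

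Bad, a BH3-only protein gene that growth factor kinases silence by phosphorylating its product, was at 6.17 in the inhibitor array and 5.64 in the DMSO array. Its difference was 0.41 (SD 0.61), with 5 of 6 probesets higher. The probeset furthest up had 6.81 in the inhibitor array and 5.72 in the DMSO array, and the single lower one differed by -0.72.

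Bbc3 and Bid were the 2 members with a difference below 0, and neither had its probesets on one side. Bbc3, which encodes PUMA, the BH3-only protein best known as a p53 target, was at 5.03 in the inhibitor array and 5.35 in the DMSO array. Its difference was -0.22 (SD 0.39), with 3 probesets higher and 4 lower. Its brightest probeset, at 8.65 in the inhibitor array and 8.52 in the DMSO array, differed by 0.13.

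Bid links death receptors to mitochondria, because caspase-8 cuts its protein into the active form. Its level was 6.245 in the inhibitor array and 6.004 in the DMSO array, whereas the median of its probeset differences was -0.26 (SD 0.52), with 2 higher and 4 lower. As for Bcl2l1, the gap between the levels and the difference had opposite signs, and the probeset differences ran from -0.79 to 0.74.

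Other members of the family were read in the same way, and again none passed the size rule. Bcl2l2, the survival gene for BCL-W, differed by 0.66 (SD 0.86) with 3 of 5 probesets higher. The pore former relative Bok differed by 0.55 (SD 0.35) with 6 of 6 probesets higher, at 6.05 in the inhibitor array and 5.46 in the DMSO array. Among BH3-only genes Bmf, whose product is tethered to the cytoskeleton, differed by 0.73 (SD 0.55) with 4 of 6 probesets higher. Bnip3l, which encodes the receptor that clears mitochondria from maturing red cells, was at 8.05 in the inhibitor array and 8.14 in the DMSO array and differed by -0.15. Bik, Bnip3, Bcl2l12 and Bcl2l13 differed by between -0.30 and 0.06. With the members included, all 4 measured survival genes and both measured pore former genes were above 0. Of 9 measured BH3-only and BH3-like genes, 4 were above 0 and 5 below. The share above 0 was 59.0% over all measured genes. The medians were 0.29 for the survival genes, 0.46 for the pore formers and -1e-05 for the BH3 genes.

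Casp8 was the one gene past the size rule among 17 measured genes of the apoptosome, the caspases and their inhibitors. Caspase-8 is the initiator of death receptor signalling and also keeps the necroptosis kinases in check. Casp8 was at 5.06 in the inhibitor array and 3.82 in the DMSO array and differed by 1.60 (3.02-fold, SD 1.06), with 7 of 7 probesets higher. Of all measured genes, 0.471% had a difference at least as high. The rest of the list lay close to 0, with a list median of 0.07. Its next largest differences were 0.33 for Xiap, a caspase inhibitor, 0.26 for Dffa, which restrains the apoptotic nuclease, 0.26 for the mitochondrial nuclease gene Endog and -0.23 for Diablo, which relieves XIAP. Apaf1, the scaffold of the apoptosome, differed by 0.05 over 35 probesets, and Casp9, the caspase it activates, by 0.01 over 14.

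Among death receptors and their adaptors, Ripk3 passed the size rule at its edge. It encodes the kinase of necroptosis and was at 5.79 in the inhibitor array and 4.49 in the DMSO array, with a difference of 1.0005 (2.001-fold, SD 0.84) and 10 of 11 probesets higher. It was at 0.94 with the median gene set to 0, below the size rule. Tnfrsf1a, the receptor of tumour necrosis factor, differed by 0.57 (SD 0.33) with 14 of 15 probesets higher, and Fadd, the adaptor that brings caspase-8 to death receptors, by 0.57 (SD 0.57) with 5 of 5 higher. Tnfsf10, the ligand TRAIL, differed by 0.53, and Ripk1 by 0.47. The TRAIL receptor gene Tnfrsf10b went the other way at -0.42, with 10 of 13 probesets lower, and so did Fas at -0.29. The list of 10 measured genes had a median of 0.40, with 7 above 0, against the median of 0.06 for all measured genes. When each gene was read on its brighter probesets, which measured 7 of them, the median was 0.05, as for all measured genes, and it was 0.22 with dim probesets kept and 0.23 with odd-ranked probesets alone.

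Regulators of the family were mixed. Epor, the erythropoietin receptor gene through which red cell precursors are kept alive, was the lowest, at 5.45 in the inhibitor array and 7.04 in the DMSO array, with a difference of -1.64 and 8 of 8 probesets lower. Epor is also among the erythroid markers given above. Mapk3, which encodes ERK1, a kinase that marks BIM protein for destruction, differed by 1.07 (2.10-fold, SD 0.47) with 8 of 9 probesets higher, and it was at 0.87 as a mean over probesets, below the size rule. The red cell factor Gata1 differed by -0.73 and the stem cell factor receptor Kit by -0.66. Stat3 differed by 0.50 and Akt2 by -0.40. The forkhead genes Foxo1 and Foxo3 lay on opposite sides of 0, at 0.37 and -0.36. The 17 measured survival signalling genes had 1 higher and 1 lower past the rule and a median of -0.05, which was -0.02 over the 15 that no marker list holds.

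No gene of the p53 axis, of the mitochondrial partners or of the proteins that control MCL1 and BH3-only turnover passed the size rule, among 9, 10 and 9 measured genes. In the p53 list, whose median was -0.05, the largest differences were -0.57 for Trp73, -0.48 for Gadd45a, 0.22 for Trp53inp1 and -0.19 for Ccng1. Trp53 itself was not analysed here. Mdm2, the p53 target and inhibitor, was at 8.84 in the inhibitor array and 8.74 in the DMSO array, with a difference of 0.08. The carrier relative Mtch2, which receives truncated BID at mitochondria, differed by 0.36 with 22 of 28 probesets higher, Tspo by 0.17, and the pore regulator Ppif by -0.15 with 7 of 7 lower. Vdac2, which holds BAK at the outer membrane, differed by 0.11. In the turnover list Trib2 differed by -0.53, Fbxw7, a ligase subunit for MCL1, by 0.34, the co-chaperone gene Bag3 by 0.33 and Dynll1, which tethers BIM, by 0.26. Huwe1 and Usp9x, which add and remove ubiquitin on MCL1, differed by -0.06 and -0.08 over 96 and 51 probesets.

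**Figure D4:**
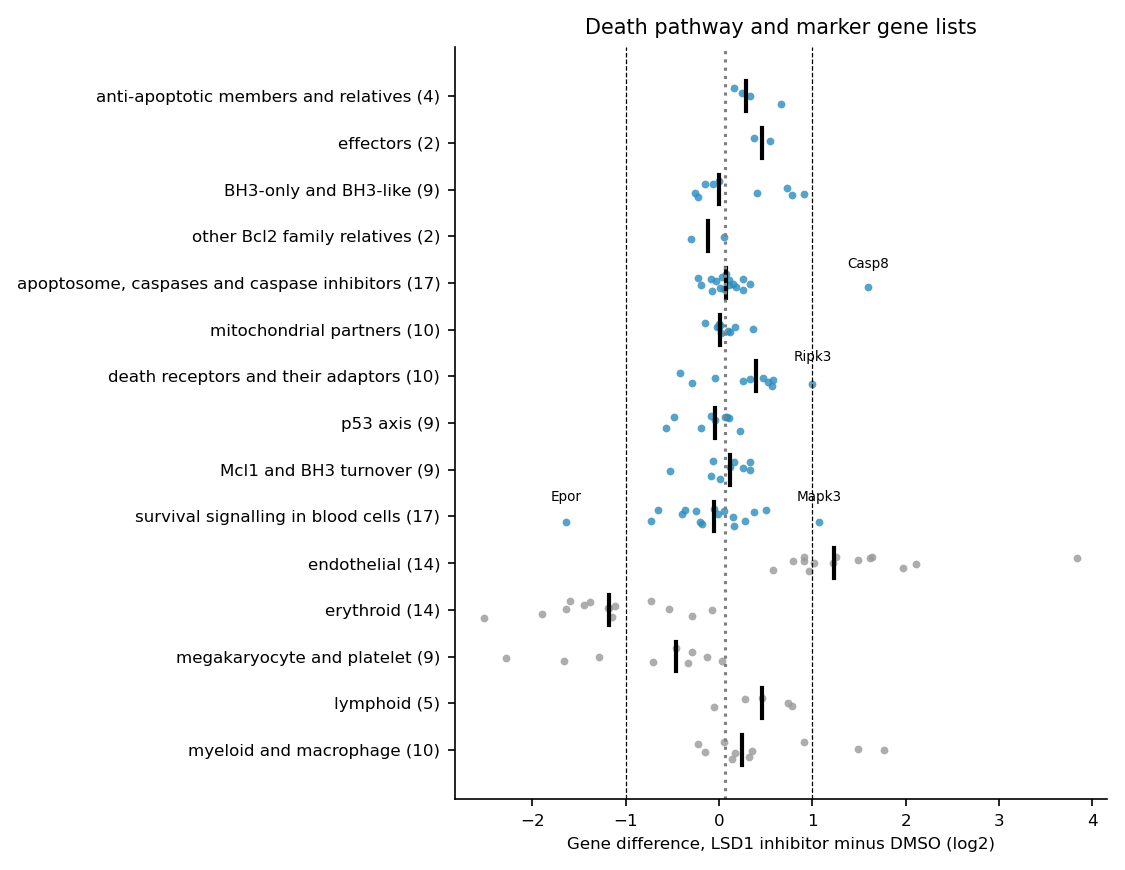
Difference between the LSD1 inhibitor array and the DMSO array (log2) for each measured gene of 10 death pathway lists (blue) and 5 marker lists (grey), with the number of measured genes in brackets, a black bar at each list's median, a dotted line at the median of all measured genes and dashed lines at 2-fold. Of the pathway genes, Casp8, Ripk3 and Mapk3 lie above 2-fold and Epor below it, while the endothelial and erythroid markers lie on opposite sides of 0.

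Across 17 other ways of processing the values, the sign of the difference of each of the 9 members was the same in every setting that measured it. Some of these settings could not change a member's value. They altered only the threshold, the direction rule or the number of bright probesets required, or kept probesets with several genes, which no member had. Bcl2l11 ranged most, between 0.22 and 1.21, and passed the 2-fold rule in 3 settings. Bak1 stayed between 0.23 and 0.40, and Bcl2l1 came closest to 0, at 0.02.

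**Figure D5:**
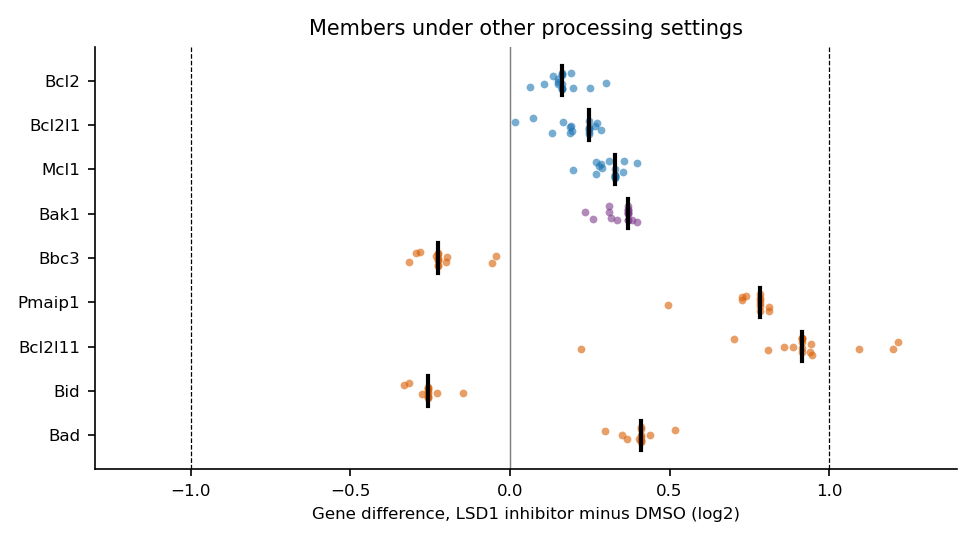
Difference of each of the 9 members (log2, LSD1 inhibitor minus DMSO) under each other processing setting (points) and as reported (black bar), with dashed lines at 2-fold. Bcl2l11 is the one member with points beyond 2-fold, and its lowest point is at 0.22.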

How the data were processed

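The values are the deposited series table, 1 value for each of 1048575 probesets on each of 2 arrays, read as log2 intensity from its range of 0.157 to 13.5. The label calls it an RNA expression value, and how the authors summarised and normalized it is not given in the sources used here. Matched rank by rank, the arrays lie within 0.0846 of each other, as after quantile normalization. The row count equals a spreadsheet's limit less the header, so a gene may be read on part of its probesets. A dated platform annotation gave 1 symbol to 270105 probesets, several to 5737 and none to 772733. Of 22133 symbols, 17905 were current in RefSeq (GRCm38.p6), 4167 were updated through synonyms and 61 were kept.

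Values were used without further scaling (Python 3.11.15, pandas 2.3.3), and the gene summary was tested on simulated data. All 10 members were named, and in each of the other pathway lists the genes past the size rule and up to 4 more with the largest differences; the marker lists are given as counts and summed levels, apart from the genes named below and Epor and Gata1, which the survival signalling list holds. Mdm2, Apaf1, Casp9, Tnfrsf10b, Fas, Foxo1, Foxo3, Huwe1, Usp9x, Bik, Bnip3, Bnip3l, the marker genes Cdh5 and Itga2b and the unmeasured genes of the closing section were added for their roles after their values were seen. Members and lists were chosen with earlier results of these data known. With 1 array per condition no p-value was computed, and precision is limited by there being 2 arrays. Coordinates are given only for promoter windows, and no sequence of Pmaip1 is shown.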

Additional observations from a re-analysis of the deposited data

How the results depend on the processing

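No paired analysis was possible because each condition has 1 array. No member passed the size rule as lower in any of 17 alternatives. As higher, 2 members passed with a 1.5-fold threshold (Bcl2l11 and Pmaip1), and 1 member, Bcl2l11, passed with only the brighter probesets of each gene (those at or above its median) (difference 1.09), with a brightness cut at the table's 75th percentile (1.20) and with odd-ranked probesets alone (1.21); even-ranked probesets gave 0.22. The cause was not tested. The median of the members stayed between 0.20 and 0.36. Casp8 differed by 2-fold or more in all 15 alternatives that measured it, from 1.02 to 2.07. Those that changed only a threshold, the direction rule or the number of bright probesets required could not alter its value of 1.60. Ripk3 missed the 2-fold rule at 0.96 with a level-dependent trend removed, 0.93 as a mean and 0.94 with the median gene at 0. Mapk3 missed it at 0.995 with the trend removed, 0.87 as a mean and 0.90 with even-ranked probesets. The median of the BH3 genes was above 0 in some settings and below it in others, between -0.09 and 0.43. With at least 1 bright probeset in place of 4, 641 genes were higher and 439 lower, against 259 and 85 as reported. With at least 8 they were 155 and 44, with the brighter probesets 169 and 51, with low values raised to the table's median 193 and 51, with a 1.5-fold threshold 882 and 402, and with a 3-fold threshold 70 and 18. The list of survival signalling genes without marker genes was added after the data were seen. Dim probesets bear only a bound, since the table has no detection call.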

Other observations

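Several family relatives had too few bright probesets to be measured, and their values are given as they stand. Hrk, a BH3-only gene best known from neurons, had 2 probesets, with medians of 7.01 in the inhibitor array and 6.63 in the DMSO array. Bcl2a1a and Bcl2a1b, near-identical survival genes of the A1 group that one probe can fail to tell apart, had 1 probeset each. That of Bcl2a1a was at 4.998 in the inhibitor array and 5.66 in the DMSO array, and that of Bcl2a1b at 1.29 in the inhibitor array and 3.65 in the DMSO array. Bcl2l10 had 2 bright probesets of 5 and medians of 2.37 in the inhibitor array and 2.60 in the DMSO array. Bcl2l14 and Bcl2l15 had 3 of 8 and 1 of 5 bright probesets. Mlkl, which encodes the pore protein that RIPK3 activates, had 3 bright probesets of 8, with medians of 2.69 in the inhibitor array and 2.66 in the DMSO array.

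Cdkn1a, the p53 target that encodes the cell cycle inhibitor p21, had 3 probesets, all bright, and a median of 9.74 in the inhibitor array and 9.52 in the DMSO array. Myc had 3 bright probesets and a median of 9.71 in the inhibitor array and 9.97 in the DMSO array.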
